A study of Mus musculus with 12 samples.

Results

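Malat1 and Neat1 are neighbouring genes for long noncoding RNAs (lncRNAs) that stay in the nucleus and rank among the most abundant of their class in many tissues. All of their annotated transcripts were looked up by identifier in the lncRNA table of mouse liver, with names from the GENCODE M21 annotation. These 2 genes, of 1043 in that table, have 8 annotated transcripts, of which 6 were listed among 1432 lncRNA transcripts. The genes were chosen by name, with earlier results of these data known.

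The samples were livers of 12 mice with hepatic fibrosis made with carbon tetrachloride (CCl4), a hepatotoxin, and all were taken in the eighth week. The 6 mice of the PZH group received Pien Tze Huang (PZH), a traditional Chinese medicine, by the intragastric route each day, and the 6 mice of the control group received double distilled water instead. Both groups had repeated intraperitoneal injections of CCl4, so neither is a group of healthy mice, and no sequenced group without CCl4 was analysed here. The strain is labelled C57BL/8, whereas the methods of the study describe male C57BL/6J mice. Each sample is 1 mouse, and the RNA was whole-tissue RNA depleted of ribosomal RNA, which also keeps transcripts that lack a poly(A) tail. Fewer cells of a type and less RNA per cell cannot be told apart in such samples.

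Malat1 RNA gathers in nuclear speckles, bodies rich in splicing factors, and is known from work on alternative splicing and gene expression. Neat1 RNA is the scaffold of the paraspeckle, another nuclear body, and the long form of Neat1 is the one that builds it. The long transcripts of both genes are matured in an unusual way. RNase P cuts them just before a tRNA-like stretch, which is released as a small RNA, and the new 3′ end is protected by a triple helix of a U-rich motif pair with an A-rich tract in place of a poly(A) tail.

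Malat1 (ENSMUSG00000092341) lies on the minus strand of chr19:5795690-5802672 and Neat1 (ENSMUSG00000092274) on the minus strand of chr19:5824708-5845478 (GRCm38), with 22035 bases between them. The main transcript of each is a single exon that spans its whole gene. That of Malat1 (ENSMUST00000172812) has 6983 bases, and the long transcript of Neat1 (ENSMUST00000173672) has 20771 bases. A search of their last 400 bases for shared exact words of at least 10 bases found 3 words. These are shown in capitals, because they are the sequence that the 2 RNAs have in common. The Malat1 stretch covers transcript positions 6606 to 6691 (chr19:5795982-5796067), and the Neat1 stretch covers positions 20680 to 20771 (chr19:5824708-5824799), where the annotated transcript ends. Both are written 5′ to 3′ on the transcript strand, in DNA letters, from the GENCODE M21 transcripts.
Malat1 main transcript: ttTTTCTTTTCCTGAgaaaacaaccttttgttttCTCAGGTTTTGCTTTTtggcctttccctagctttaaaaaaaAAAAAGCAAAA
Neat1 long transcript: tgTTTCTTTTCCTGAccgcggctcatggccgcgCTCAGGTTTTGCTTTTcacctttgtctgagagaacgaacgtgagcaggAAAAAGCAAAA

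The words came in the same order in both RNAs, as 2 T-rich words of 13 and 16 bases followed by an A-rich word of 11 bases. Of the last 400 bases of 1429 other listed lncRNA transcripts with a sequence, 0 held the first word, 0 held the second and 1 (0.07%) held the third. In Malat1 the annotated transcript continued for 292 bases past the A-rich word. In Neat1 it stopped with that word.

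The bases that follow the A-rich word are shown next, because they carry the tRNA-like stretch. In the main Malat1 transcript they are part of the annotation (positions 6692 to 6749, chr19:5795924-5795981). After the long Neat1 transcript they are a separate annotated small RNA gene, Gm27702 (chr19:5824652-5824707, minus strand), which has 56 bases. Capitals mark the 2 exact words of at least 8 bases that both share.
Malat1 after the tract: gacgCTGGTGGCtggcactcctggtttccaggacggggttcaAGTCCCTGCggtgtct
Gm27702: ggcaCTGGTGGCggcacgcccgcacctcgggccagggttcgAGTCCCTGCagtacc

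The first word started at base 5 of both and the second at base 43 after the Malat1 tract and base 42 of Gm27702. Of the last 400 bases of 1430 other listed lncRNA transcripts, 15 (1.05%) held the first word, 4 (0.28%) held the second and 0 held both. The short transcript of Neat1 (ENSMUST00000174287, 3004 bases in 2 exons) ends differently. Its end corresponds to position 3172 of the long transcript, whose following 17599 bases it lacks. Its last 60 bases (chr19:5842307-5842366) are shown with the polyadenylation signal AATAAA in capitals.
Neat1 short transcript: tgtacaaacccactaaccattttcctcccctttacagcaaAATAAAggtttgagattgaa

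AATAAA stood in the last 60 bases of 526 (36.8%) of the 1431 transcripts, among them the main Malat1 and the short Neat1 transcript, and not in those of the long Neat1 transcript.

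The values are FPKM, fragments scaled to the length of the transcript and to the size of the library, so levels of different genes are compared per length. Malat1, summed over its transcripts, had 730 FPKM in the lowest, 988 at the median and 1181 in the highest mouse of the PZH group. In the control group these were 834, 955 and 1003 FPKM. The groups overlapped, and the PZH group held both the lowest and the highest mouse of all 12. Malat1 was the fourth most abundant of 1043 lncRNA genes at the median of the mice (rank 3 to 4), after AY036118, Gm26917 and Gm42418. Among 15230 genes of both tables it ranked 38 to 64, with a median rank of 45.5.

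Neat1 was at 21.03 FPKM in the lowest, 52.7 at the median and 86.6 in the highest mouse of the PZH group, against 53.6, 68.5 and 126 FPKM in the control group. PZH 1 was the lowest and control 4 the highest of all mice. The groups overlapped, with 3 PZH mice below every control mouse and 1 control mouse above every PZH mouse. Neat1 ranked 5 to 9 among lncRNA genes and 313 to 1861 among all genes. Its highest mouse was 5.98 times its lowest, whereas for Malat1 the same ratio was 1.62.

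**Figure D1:**
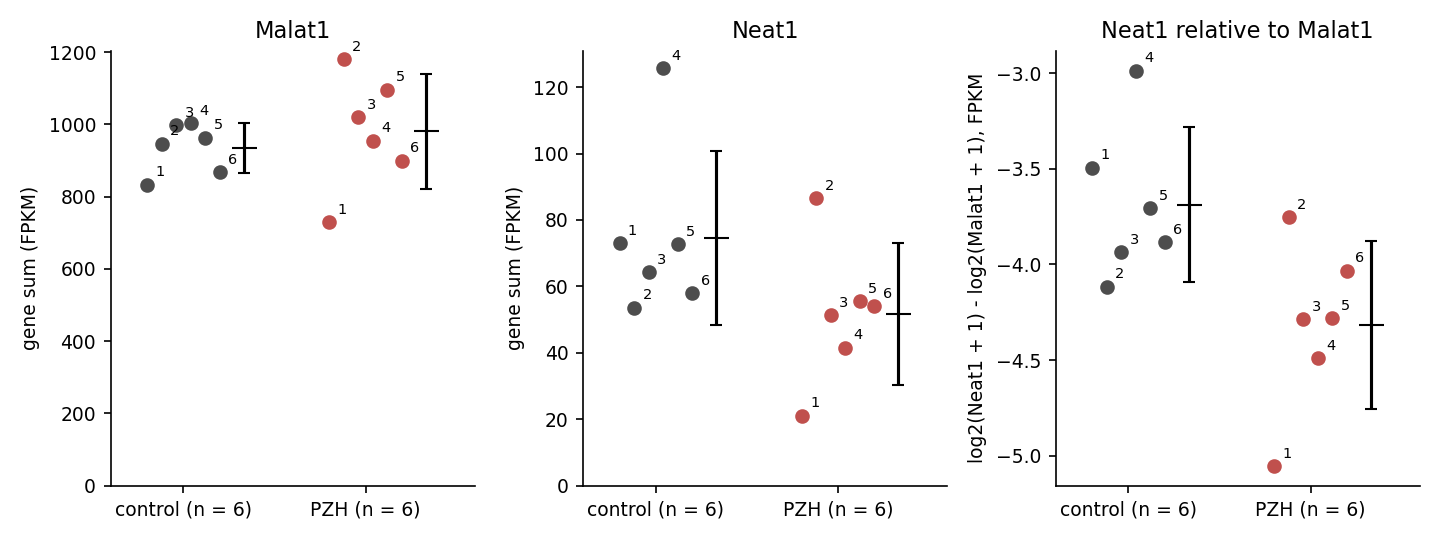
Gene sums in FPKM of Malat1 (left) and Neat1 (middle), and the difference of their log2(FPKM + 1) values (right), in each of 6 control and 6 PZH mice; each point is 1 mouse with its number, and the black bar with whiskers is the mean ± SD of 6. The Malat1 groups overlap from 834 to 1003 FPKM, and in the Neat1 panel PZH 1 (21.03 FPKM) and control 4 (126 FPKM) stand apart from the rest.

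The comparison of the groups was made with limma on log2(FPKM + 1), with p-values adjusted by the Benjamini-Hochberg method over the whole table. The mean of Malat1 over 6 mice was 981 ± 158 FPKM (SD) with PZH against 935 ± 69.7 FPKM in the control group. The log2 fold change, PZH over control, was 0.05 (SE 0.10, 95% interval -0.17 to 0.28, limma adjusted p = 0.739). The interval runs from 0.892-fold to 1.21-fold. The spread of Malat1 between mice, as the coefficient of variation, was 16.1% in the PZH group against 7.45% in the control group.

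For Neat1 the means were 51.7 ± 21.4 FPKM with PZH against 74.6 ± 26.3 FPKM in the control group. The log2 fold change was -0.57 (SE 0.28, 95% interval -1.19 to 0.04, limma adjusted p = 0.149), a fold of 0.672 with an interval of 0.439 to 1.03. The difference did not pass the test, and the interval still held a fold of 0.439 as well as no difference. It rested in part on the mice at the ends of the range: without PZH 1 it was -0.34, without control 4 it was -0.41, and without both it was -0.18 (limma adjusted p = 0.467). Leaving out both mice was chosen after the values were seen.

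By this test 0 of the 2 genes were called, at an adjusted p under 0.05 or at a 2-fold change with an unadjusted p under 0.05, and neither gene had an unadjusted p under 0.05. Of all 1043 lncRNA genes, 262 (25.1%) were called at an adjusted p under 0.05, 150 as higher and 112 as lower with PZH, and 27 (2.59%) at a 2-fold change. The authors' FPKM scale each library by its own total. When the libraries were instead scaled by the median ratio over transcripts above 0 in all mice, the split was 228 higher and 91 lower. Malat1 then had a log2 fold change of 0.23 and was called as higher in the PZH group (limma adjusted p = 0.0297), while Neat1 had -0.40 (limma adjusted p = 0.261). The factors of that scaling were 0.855 to 1.02 in the PZH group against 1.04 to 1.12 in the control group, with no overlap.

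**Figure D2:**
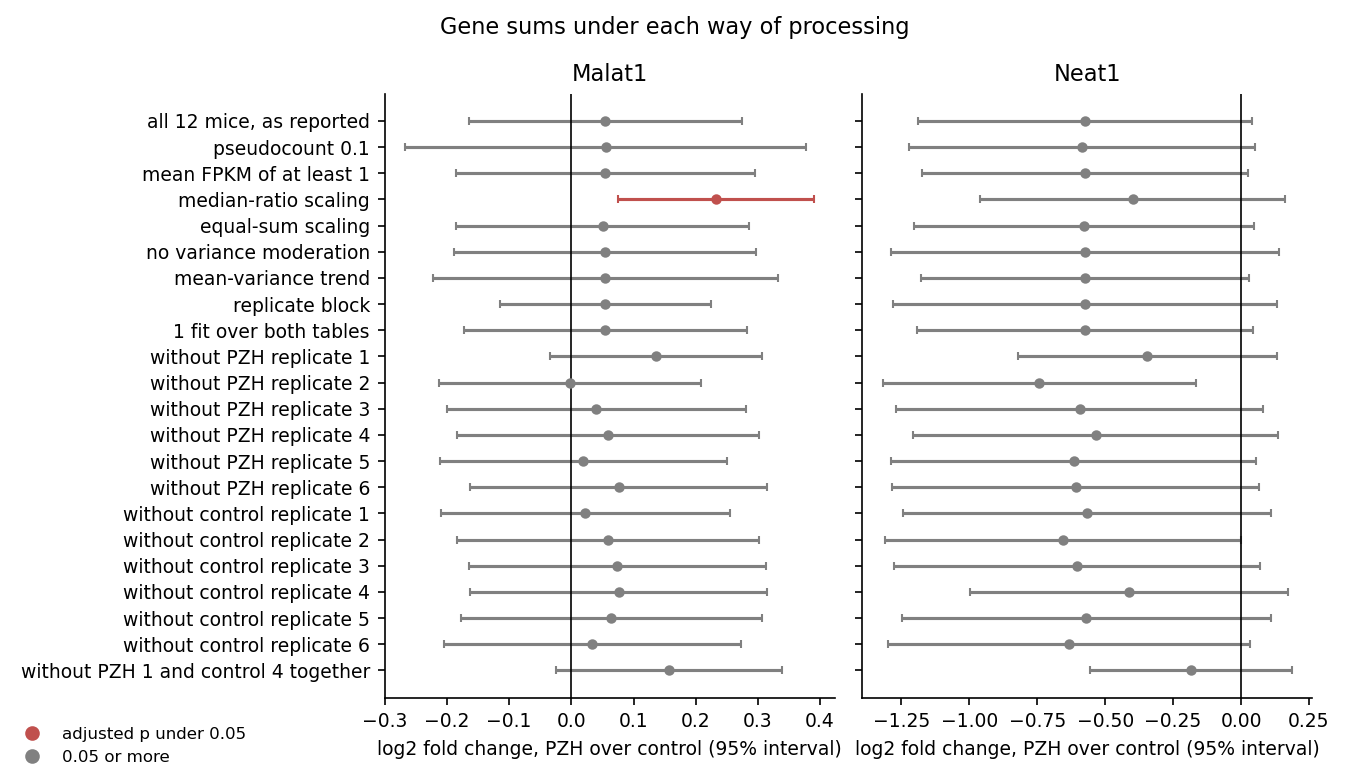
Log2 fold change of the Malat1 (left) and Neat1 (right) gene sums, PZH over control, on log2(FPKM + 1) as reported (top line) and under each alternative, with points for the estimate and bars for the 95% interval; red marks an adjusted p under 0.05. Malat1 lies between -0.0021 and 0.16 except under median-ratio scaling (0.23), and Neat1 stays below 0 throughout, nearest to it without PZH 1 and control 4 together (-0.18).

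The level of Neat1 relative to Malat1 in the same mouse does not depend on how the libraries are scaled, apart from the added 1 FPKM. Per FPKM of Neat1 there were 13.6 FPKM of Malat1 in the lowest, 19.8 at the median and 34.7 in the highest PZH mouse. In the control mice there were 7.98, 14.1 and 17.7. The groups overlapped. On the log2(FPKM + 1) scale, Neat1 minus Malat1 averaged -4.32 ± 0.44 (SD of 6 mice) in the PZH group against -3.69 ± 0.40 in the control group. The difference of -0.63 had p = 0.0238 in a two-sided exact permutation test, of which the smallest possible p is 0.00216. Over the 8 ratios and shares tested per mouse in this way, the adjusted p was 0.165, so the difference did not pass. Without PZH 1 and control 4 the difference was -0.34 (exact permutation p = 0.0873).

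Multiplying FPKM by transcript length gives a measure of the fragments that each gene took up. Malat1 took 18.2 to 22.3% of the fragments of the lncRNA table in the PZH group against 19.4 to 22.2% in the control group. Neat1 took 1.76 to 4.84% and 3.47 to 7.77%. The groups overlapped for both genes. Of 6 such measures tested, the share of Neat1 in the lncRNA table had the smallest p in a two-sided exact permutation test, 0.0433, and 0.260 after adjustment over the 6. That of Malat1 in the lncRNA table had p = 0.933 in the same permutation test.

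The 6 transcripts differed widely in level. The main Malat1 transcript held at least 99.95% of the gene sum in every mouse. The other listed one (ENSMUST00000174808), a spliced transcript of 656 bases from the 3′ part of the gene, was listed at 0 in 7 mice and reached 0.447 FPKM at most. A further 2 annotated Malat1 transcripts (ENSMUST00000173314 and ENSMUST00000173499) were not listed. The long Neat1 transcript ran from 20.8 to 86.0 FPKM in the PZH group against 53.0 to 125 FPKM in the control group. Its log2 fold change was -0.57 (SE 0.29, limma adjusted p = 0.184). It held 98.6 to 99.3% of the Neat1 sum in the PZH group against 97.7 to 99.1% in the control group. The difference of 0.58 percentage points in this share had p = 0.0411 in a two-sided exact permutation test, and 0.247 after adjustment over the 6 transcripts.

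The other listed transcripts of Neat1 were near the floor of the table. The short transcript was listed at 0 in 5 mice and reached 0.501 FPKM, with a log2 fold change of -0.26 (limma adjusted p = 0.104). A spliced transcript of 1030 bases from the 5′ part of the gene (ENSMUST00000174829) reached 0.961 FPKM and had -0.27 (limma adjusted p = 0.126). A spliced transcript of 711 bases from the 3′ part (ENSMUST00000232969) was listed at 0 in 5 mice, reached 0.714 FPKM and had -0.18 (limma adjusted p = 0.439). Without adjustment the limma p-values of the first pair were 0.0304 and 0.0414, under 0.05. Of all 1432 lncRNA transcripts, 506 had an unadjusted p under 0.05. Of the 6 transcripts, 0 were called after adjustment, where 295 (20.6%) of all 1432 were called, and 0 at a 2-fold change, where 23 (1.61%) were. With 0.1 FPKM added in place of 1, the short Neat1 transcript had -1.20 (limma adjusted p = 0.102) and passed the call at a 2-fold change without adjustment, as did 209 lncRNA transcripts in all.

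Summed together, these 3 minor transcripts ran from 0.252 to 0.589 FPKM in the PZH group against 0.616 to 1.70 FPKM in the control group, without overlap. The sum was formed after the values were seen and is given without a test. Of single lncRNA transcripts, 11.9% did not overlap between the groups. The long form relative to the short form, as the difference of log2(FPKM + 1), was 5.47 ± 0.61 in the PZH group against 5.78 ± 0.53 in the control group (SD, n = 6; two-sided exact permutation p = 0.383). The long transcript contains the bases of the short one, and the authors' assembler divided the fragments of that region between the forms.

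Within each group the 2 genes were compared mouse by mouse. In the PZH group PZH 1 had the least and PZH 2 the most of both RNAs. Pearson's r between the log2 values was 0.92 (exact permutation p = 0.0125, 0.05 after adjustment over 4 relations) and Spearman's rho was 0.83 (exact permutation p = 0.0583, adjusted 0.117) over 6 mice. Without PZH 1 and PZH 2, the mice farthest from the median of Malat1, r was 0.32. Leaving out the ends of the range can lower r by itself, so this value does not show whether the relation rests on those mice. PZH 1 and PZH 2 also had the lowest (0.855) and the highest (1.02) factor of median-ratio scaling in the PZH group. The part of the library scale in this relation was not tested. In the control group r was 0.38 (exact permutation p = 0.508) and rho 0.31 (exact permutation p = 0.564). Without control 1 and control 6, the farthest there, r was 0.70.

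**Figure D3:**
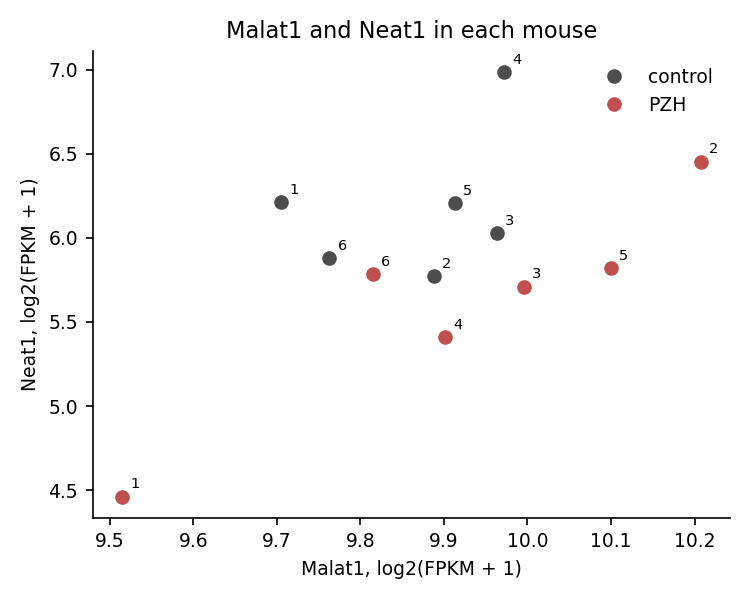
Neat1 against Malat1, both as log2(FPKM + 1), with 1 point for each of 6 PZH (red) and 6 control (grey) mice and its number. PZH 1 lies at the lower left and PZH 2 at the upper right of the PZH mice, and control 4 lies above the other control mice.

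Genes with a pattern over the mice like that of each lncRNA were found by Pearson's r of log2(FPKM + 1), after each group was set to its own mean. This is a description over 12 mice, in which each point shares its library, its scaling and its RNA with all other genes of that mouse. The genes named are the extremes of 11229 genes compared, and such a choice by itself tends to make r large in size. Closest to Malat1 were Polr2m (0.97), Atrnl1 (0.97), Ncoa1, a coactivator of nuclear receptors (0.96), Myadm (0.96) and Cadm4 (0.96). At the opposite end stood the histone gene Hist1h2af (-0.96), Pnrc2 (-0.94), Nat2 (-0.94), the mitotic spindle gene Nusap1 (-0.93) and Cox7c, a subunit of cytochrome c oxidase (-0.92).

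Closest to Neat1 were Fat1, an atypical cadherin (0.97), Strn (0.97), Gnb2 (0.95), Vegfc, a lymphangiogenic growth factor (0.95), and Jag1, a Notch ligand (0.93). At its opposite end were Ugt2b36, a glucuronosyltransferase (-0.96), Atg5 (-0.92), Gc, the vitamin D binding protein made by hepatocytes (-0.92), Ndufaf1 (-0.92) and Hfe (-0.91). Malat1 and Neat1 had r = 0.79 with each other on this measure. The lists of 5 shared no gene.

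The genes around Malat1 and Neat1 were examined within 150 kb on either side. The 16 listed neighbours described here are all protein-coding. In the PZH group 9 were lower at an adjusted p under 0.05, 0 were higher, and 7 were not called. Over all protein-coding genes 44.8% were called, 32.1% lower and 12.7% higher, and the median log2 fold change of the 16 was -0.38 against -0.11 over all protein-coding genes. All neighbours but Kcnk7 and Tigd3 had a mean of at least 1 FPKM. Among protein-coding genes with such a mean, 38% were lower and 13.5% higher, with a median of -0.17. Under median-ratio scaling 7 of the 16 were lower and 0 higher, against 20.1% lower and 19% higher over all protein-coding genes, and the median over all protein-coding genes moved from -0.11 to -0.01.

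Frmd8 was the nearest listed gene on the Neat1 side. It was at 2.99 ± 0.53 FPKM in the PZH group against 5.80 ± 0.84 FPKM in the control group (SD, n = 6), which was -0.77 on the log2 scale (SE 0.11, limma adjusted p = 0.000166), and the groups did not overlap. Of the 16 neighbours 7 did not overlap between the groups, against 24.3% of all protein-coding genes.

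Rela, the p65 subunit of NF-kappaB, lies farthest out on the Malat1 side. It ran from 7.16 to 11.99 FPKM in the PZH group against 16.3 to 24.3 FPKM in the control mice, with a log2 fold change of -0.98 (limma adjusted p = 0.000111). Lower values were also found for Map3k11, a kinase of the JNK pathway (-0.59), Pcnx3 (-0.58), Ehbp1l1 (-0.55), Dpf2, a subunit of a chromatin remodelling complex (-0.47), Cdc42ep2 (-0.43), Sipa1 (-0.35) and Capn1, a calpain protease (-0.33). Of these, Sipa1 and Capn1 were not called under median-ratio scaling. The neighbours that were not called were Kcnk7, Fam89b, Sssca1, Ltbp3, Slc25a45, Tigd3 and Pola2, with log2 fold changes from -0.41 to 0.07, of which Slc25a45 and Pola2 had the opposite sign under median-ratio scaling. Kcnk7 and Tigd3 were near the floor, at no more than 0.227 and 0.251 FPKM, where the added 1 FPKM leaves little room for a change. Without PZH 1 and control 4 the neighbours called as lower were 8 of 16, and 0 were higher, against 29.8% lower and 12.2% higher over all protein-coding genes.

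**Figure D4:**
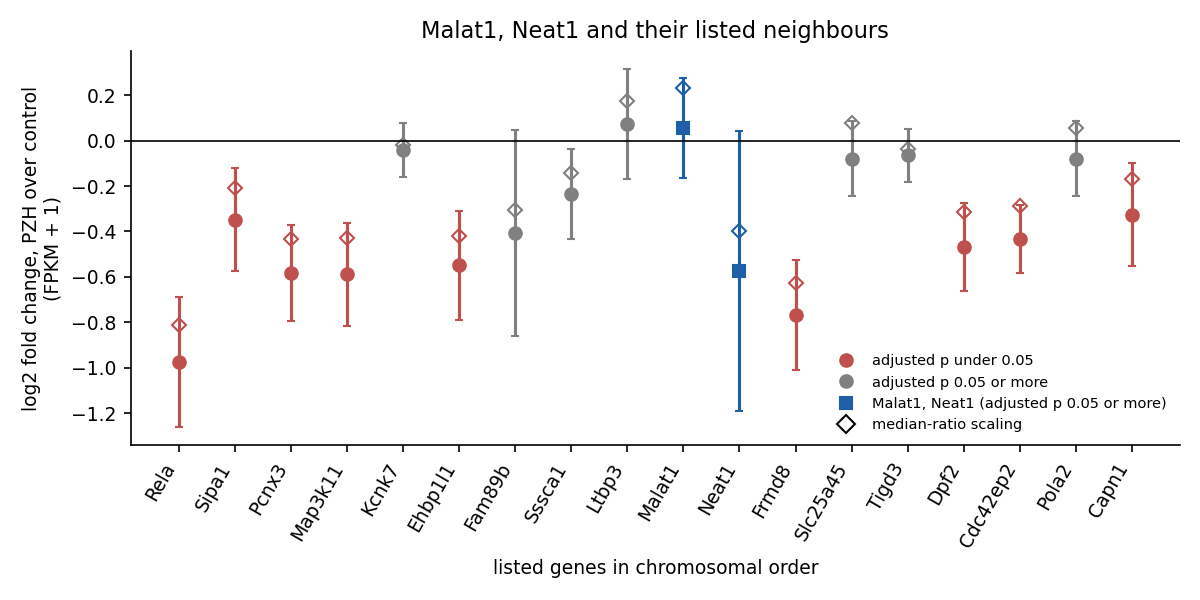
Log2 fold change, PZH over control, on log2(FPKM + 1), of Malat1 and Neat1 (blue squares) and 16 listed neighbours in chromosomal order, with 95% intervals; red points passed an adjusted p under 0.05, grey points did not, and open diamonds give the value under median-ratio scaling. Frmd8 (-0.77) stands next to Neat1 (-0.57), Malat1 is at 0.05, and Rela (-0.98) has the lowest value shown.

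Proteins that bind or process these RNAs were grouped in lists, which were drawn up with earlier results of these data known. Their counts stand beside the 32.1% lower and 12.7% higher of all protein-coding genes, or 20.1% and 19% under median-ratio scaling. In the fit of protein-coding genes with a mean of at least 1 FPKM, 38% were lower and 13.5% higher, with a median of -0.17. All members of the protein lists reached that mean, except 2 in the list of 3′ end maturation and RNA turnover. Of 19 paraspeckle protein genes, all listed, 8 were lower in the PZH group (32.1% of all protein-coding genes), 0 were higher and 11 were not called, with a median log2 fold change of -0.19 against -0.11 over all protein-coding genes. Under median-ratio scaling 4 of the 19 were lower, where 20.1% of all protein-coding genes were, and 1 was higher, with a median of -0.03. Sfpq, a core protein needed for paraspeckles, was at 15.5 to 23.6 FPKM in the PZH group against 25.2 to 30.1 in the control mice, with a log2 fold change of -0.50 (limma adjusted p = 0.000746). The groups did not overlap for 3 of the 19 genes, Sfpq among them, against 24.3% of all protein-coding genes. Nudt21, part of the complex that sets the poly(A) site, was also lower (-0.32, limma adjusted p = 0.00199), but was not called under median-ratio scaling (limma adjusted p = 0.112). Of the other core proteins, Pspc1 was lower (-0.39, limma adjusted p = 0.00654), and Nono had -0.08 (limma adjusted p = 0.345), with the opposite sign under median-ratio scaling.

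Of 22 nuclear speckle and SR protein genes, 11 were lower (32.1% of all protein-coding genes), 0 higher and 11 not called, with a median of -0.21, and under median-ratio scaling 5 were lower (20.1% of all) and 0 higher, with a median of -0.05. Rnps1, a splicing activator, had a log2 fold change of -0.65 (limma adjusted p = 0.000159), and the SR protein gene Srsf9 had -0.64 (limma adjusted p = 0.000227). Srsf2, whose protein marks nuclear speckles, ran lower as well (-0.64, limma adjusted p = 0.000916). Srsf1, which binds Malat1, had -0.19 (limma adjusted p = 0.338). Son, a scaffold of the speckle, was lower (-0.21, limma adjusted p = 0.0109), though not called under median-ratio scaling (-0.04, limma adjusted p = 0.671).

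The enzymes of 3′ end maturation were listed together with nuclear RNA turnover factors. Of these 19 genes, 11 were lower (32.1% of all protein-coding genes), 0 higher and 8 not called, with a median of -0.28, and under median-ratio scaling 4 were lower (20.1% of all) and 1 higher, with a median of -0.14. Exosc3, a subunit of the RNA exosome, had -0.52 (limma adjusted p = 0.000279). Pop1, a protein subunit of RNase P, had -0.47 (limma adjusted p = 0.000535). Elac2, the RNase Z that trims the other end of the tRNA-like small RNA, had -0.48 (limma adjusted p = 0.00666), and was not called under median-ratio scaling (limma adjusted p = 0.0606).

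Both lncRNAs carry the modification N6-methyladenosine (m6A), which was covered by 11 genes of its writers, readers and erasers. Of these, 4 were lower (32.1% of all protein-coding genes), 0 higher and 7 not called, with a median of -0.22, and under median-ratio scaling 1 was lower (20.1% of all) and 1 higher, with a median of -0.07. The eraser Alkbh5 had -0.50 (limma adjusted p = 0.00165) and Rbm15, of the writer complex, had -0.30 (limma adjusted p = 0.0138), which was not called under median-ratio scaling (-0.18, limma adjusted p = 0.122). The writer Mettl3 had -0.37 (limma adjusted p = 0.0574), the nuclear reader Ythdc1 -0.24 (limma adjusted p = 0.278) and Hnrnpc 0.10 (limma adjusted p = 0.372).

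Of 12 other nuclear lncRNAs, 6 were listed. Rian ran from 3.52 to 10.7 FPKM in the PZH group against 0.214 to 1.25 in the control group (log2 fold change 1.96, SE 0.22, limma adjusted p = 5.51e-05). Meg3, of the same imprinted locus, ran from 1.15 to 6.19 FPKM and from 0.0967 to 0.875 FPKM (2.46-fold on FPKM + 1, limma adjusted p = 0.00335). For neither gene did the groups overlap, as for 12.9% of all lncRNA genes. Pvt1 (-0.44, limma adjusted p = 0.00796) and Ftx (-0.25, limma adjusted p = 0.0187) were lower, Ftx not under median-ratio scaling, and Jpx (0.04) and Dleu2 (-0.12, of opposite sign under median-ratio scaling) were not called. Of all lncRNA genes 14.4% were higher and 10.7% lower, with a median of 0.01, and these 6 had -0.04, or 0.11 under median-ratio scaling.

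**Figure D5:**
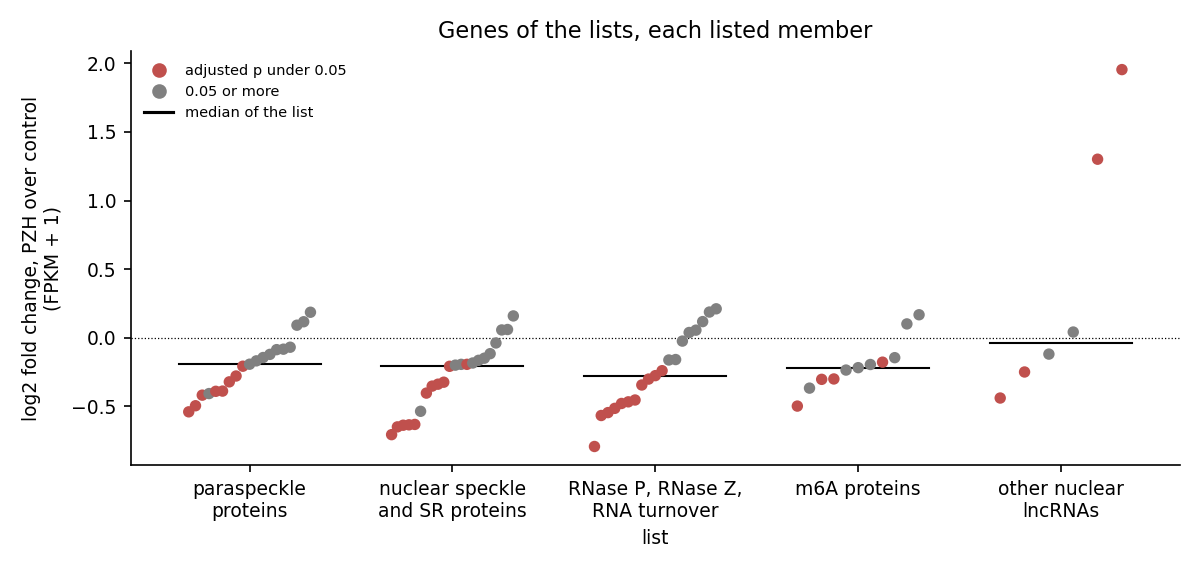
Log2 fold change, PZH over control, on log2(FPKM + 1), of each listed gene of the 5 lists, with 1 point per gene in rising order, red for an adjusted p under 0.05, and a black line at the median of the list. The medians of the 4 protein lists lie between -0.28 and -0.19, and Rian (1.96) and Meg3 stand above all other points.

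Without PZH 1 and control 4, the members called as lower were 9 of 19 for the paraspeckle, 11 of 22 for the speckle, 10 of 19 for the maturation and turnover and 1 of 11 for the m6A list, with 0 higher in each, while 29.8% of all protein-coding genes were lower and 12.2% higher in the same fit. Of the 6 lncRNAs 2 were then called as higher and 2 as lower, against 13.6% and 8.05% of all lncRNA genes.

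The tissue and the libraries were checked once for all of these results. Hepatocyte markers (9 of 10 listed, Tf not listed) summed to 45796 to 63122 FPKM in the PZH group against 29076 to 42530 FPKM in the control group, without overlap. Albumin took most of it, and 3 markers were higher, 2 lower and 4 not called. The summed markers of the other cell types overlapped between the groups, at 141 to 212 against 128 to 195 FPKM for 6 Kupffer cell genes, 263 to 507 against 218 to 403 for 10 genes of monocytes, macrophages and neutrophils, and 305 to 392 against 229 to 351 for 9 of stellate cells and fibroblasts. They were 88.2 to 112 against 98.6 to 111 FPKM for 7 endothelial genes, 67.0 to 134 against 99.0 to 162 for 6 cholangiocyte genes and 11.5 to 17.6 against 7.06 to 20.4 for 10 lymphocyte genes. In 3 of these sums 1 abundant gene gave a large part, which was Lyz2 for the myeloid cells, Dcn for the stellate cells and Spp1 for the cholangiocytes, and single markers moved both ways. Of the Kupffer cell genes 2 were higher and 1 lower, of the monocyte, macrophage and neutrophil genes 2 and 3, and of the stellate cell and fibroblast genes 2 and 2. Of the endothelial genes 0 were higher and 2 lower, of the cholangiocyte genes 0 and 2, and of the lymphocyte genes 0 and 0. Of all protein-coding genes 12.7% were higher and 32.1% lower, or 19% and 20.1% under median-ratio scaling. Under that scaling the counts higher and lower were 5 and 1 for hepatocytes, 2 and 1 for Kupffer cells and 3 and 0 for the myeloid cells. They were 3 and 2 for stellate cells, 2 and 1 for endothelial cells, 1 and 2 for cholangiocytes and 1 and 0 for lymphocytes. The cholangiocyte gene Sox9 (-1.64, limma adjusted p = 5.15e-06), the macrophage receptor gene Marco (-2.21, limma adjusted p = 0.000702) and Gpnmb (1.17, limma adjusted p = 0.000828) did not overlap between the groups, and Acta2, a marker of activated stellate cells, was lower (-0.92, limma adjusted p = 0.0123), these 4 being named after their values were seen. The list medians were -0.22 for cholangiocytes, 0.11 for Kupffer cells, -0.25 for the myeloid cells and 0.18 for stellate cells. Marco, Gpnmb and Acta2 thus went against the median of their list. Clec4f, another Kupffer cell gene, was higher (0.60, limma adjusted p = 0.0251) without overlap. Among all protein-coding genes 24.3% did not overlap between the groups. The part of these cell types in the results was not tested. Of 13 mitochondrial mRNAs 4 were higher and 0 lower, with a median of 0.30, and 12 were higher under median-ratio scaling, where the shares of all protein-coding genes called as higher were 12.7% and 19%. In the PZH mouse with the lowest Neat1, PZH 1, the factor of median-ratio scaling was also the lowest of all mice (0.855). The tables give no counts, and the depth of the libraries is unknown.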

How the data were processed

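Liver RNA of 12 mice was sequenced by the authors from strand-specific libraries depleted of ribosomal RNA. Per the labels and the study's methods, reads were trimmed with Trimmomatic, mapped with HISAT2 to GRCm38 and assembled with StringTie on Ensembl release 95. The authors deposited FPKM per transcript, 1432 lncRNA and 29883 protein-coding transcripts, and no counts were recovered from them. GENCODE M21 named 1431 and 29876 of these. FPKM were summed per gene, put on log2(FPKM + 1) without a filter, and compared with limma 3.58.1 in R 4.3.3 on all 12 mice, each table apart, with Benjamini-Hochberg adjustment (called: adjusted p under 0.05; also a 2-fold change with p under 0.05). The fit was checked on simulated data. Ratios and shares per mouse were tested by two-sided exact permutation over 924 labellings. Members and lists were chosen with earlier results of these data known. Named were all member transcripts, neighbours within 150 kb, the 5 most and least alike genes with a mean of at least 1 FPKM, and the listed partners with the smallest p or the best known ties. A further 2 genes of the lists and neighbours are not reported here and were left out of their counts. The labels name no separate cages or litters. Of 66 pairs of mice 0 had identical values. Same-numbered mice did not pair. Alternatives were another pseudocount, a filter, other scalings and variance models, 1 fit over both tables, a replicate block and leaving out mice.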

Additional observations from a re-analysis of the deposited data

Results flagged for a closer look

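Neat1 in control 4 stood apart from the other control mice. Its gene sum of 126 FPKM was the highest of 6, the next being 73.1 FPKM, and the gap was 0.730 of the range of the group, above the 95% critical value of Dixon's test. The long Neat1 transcript, which makes up nearly all of that sum, had 125 FPKM in the same mouse against 71.7 FPKM in the next, a gap of 0.738 of the range. These are the same measurement seen at gene and at transcript level. Of 30 groups of 6 mice examined in this way these were the ones past the critical value, and chance passes it in about 1 of 20 groups.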

How the results depend on the processing

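The log2 fold change of Neat1 stayed negative and uncalled under every alternative run, from -0.74 to -0.34 when 1 mouse was left out (without PZH 2 the adjusted p was 0.0534) and -0.18 without PZH 1 and control 4 together. That of Malat1 ran from -0.0021 to 0.14 with 1 mouse left out, reversing at -0.0021 without PZH 2 (its main transcript: -0.0022 to 0.14, reversing at -0.0022), and was called at 0.23 under median-ratio scaling (its main transcript: 0.23, adjusted p = 0.0378). The minor Malat1 transcript, near 0 FPKM, ran from -0.0102 to 0.11 and reversed without PZH 1 (-0.0102), PZH 3 (-0.0062) or PZH 1 and control 4 (-0.0376). With 1 mouse left out, the short Neat1 transcript (-0.33 to -0.22) was called without control 5 (-0.33, adjusted p = 0.0251), and the long one (-0.74 to -0.34) and the other ones (-0.33 to -0.20 and -0.25 to -0.10) were not called. With a pseudocount of 0.1 the short one was at -1.20, past the 2-fold call, and the other ones, at -0.86 and -0.67, were not called. The Neat1 to Malat1 difference, which did not pass after adjustment with all mice, ran from -0.74 to -0.48 (unadjusted exact permutation p from 0.00649 to 0.0498). Without PZH 1 and control 4 (-0.34) its unadjusted p was above 0.05. The share difference of the long Neat1 transcript, which also did not pass after adjustment, ran from 0.438 to 0.715 percentage points (unadjusted exact permutation p from 0.0108 to 0.0952). That of the main Malat1 transcript ran from -0.00947 to 0.00222, with reversals at 0.00222 without PZH 1 and 0.00466 without PZH 1 and control 4. The long to short difference ran from -0.43 to -0.10, reversing at 0.0723 without PZH 1 and control 4. With a pseudocount of 0.1 the calls at a 2-fold change rose from 23 to 209 lncRNA transcripts, from 27 to 138 lncRNA genes and from 570 to 1317 protein-coding genes. With a mean of at least 1 FPKM fewer features are tested, and only the main transcript of Malat1 and of Neat1 remains. The adjusted calls were then 107 of 299 lncRNA transcripts (35.8%) and 117 of 282 lncRNA genes (41.5%). With 1 mouse left out, the counts at a 2-fold change were 21 to 31, 25 to 30 and 511 to 675, and the adjusted counts 245 to 331, 230 to 303 and 5597 to 6437. Same-numbered mice of the groups share only a number: their deviations correlated at -0.150 to 0.169 over lncRNA genes and -0.0784 to 0.0929 over protein-coding genes, and 0 of 6 matched its own number best. With the replicate block the Neat1 to Malat1 difference was -0.63 (exact sign-flip permutation p = 0.125) and the share difference of the long Neat1 transcript 0.58 (p = 0.0625 in the same permutation test), and no other call of Malat1, Neat1 or their transcripts, ratios and shares changed. The adjusted counts were then 243 lncRNA transcripts, 237 lncRNA genes and 5982 protein-coding genes, and the gene lists and neighbours were not counted with the block. The causes of these changes were not tested.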
